A study of Canis lupus familiaris with 22 samples.

Results

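The cytokines IL-4, IL-13, IL-31 and IL-5, chains of the receptors for IL-4, IL-13 and IL-31 (IL4R, IL13RA1, IL2RG, IL31RA and OSMR) and the transcription factor GATA3 were followed in the blood of dogs with canine atopic dermatitis (cAD). A probe was taken as a measure of a gene when the gene name in the scanner files equalled one of these 10 symbols. Of the 43603 different probes of the array, 15 met this rule, and they measured 8 of the 10 genes. No probe carried the name *IL31* or *IL13RA1*, and these genes were not analysed here, although 1 probe without either name is described in the files as a fragment of the IL-13 receptor alpha chain 1. The samples were 8 healthy blood-donor dogs (ctrl) and 7 client-owned cAD patients of various breeds. The patients were sampled before allergen-specific immunotherapy (ASIT), which gives increasing amounts of allergen under the skin, and the same 7 dogs were sampled again after 6 months of ASIT. The labels name whole blood and the methods name peripheral blood nuclear cells (PBNCs). On each of the 22 arrays the RNA of a single dog was labeled with Cy5 and hybridized together with a Cy3-labeled common reference, a pool of RNA from other healthy dogs. Values are log2 ratios of Cy5 to Cy3, so 0 is the level of that pool, and the comparisons are named 0 vs. ctrl, 6 months vs. ctrl and 0 vs. 6 months.

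IL-4 and IL-13 are the defining cytokines of T helper 2 (Th2) cells, which drive IgE class switching and allergic inflammation, and IL-5 acts on eosinophils. IL-4 signals through IL4R paired either with IL2RG, the common gamma chain, or with IL13RA1, and IL-13 uses IL4R with IL13RA1. IL-31, an itch cytokine that is a drug target in dogs with cAD, signals through IL31RA paired with OSMR, and GATA3 is the master transcription factor of Th2 cells. In resting blood the cytokines are transcribed by few cells, while IL4R and IL2RG are expressed by many leukocytes.

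The sequences of the *IL4* probes are given first, because their detection and values differed among themselves. In the first, capitals mark a run of C and T in alternation. In the second they mark the 5 bases shared with the third, and in the third and the fourth the stretch of 36 bases that both carry, which differ inside it by C52T, counted from 1 at the 5′ end of A_11_P053456 and shown in lower case.
IL4, A_11_P000001132: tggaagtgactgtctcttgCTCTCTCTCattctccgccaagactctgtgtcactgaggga
IL4, A_11_P053556: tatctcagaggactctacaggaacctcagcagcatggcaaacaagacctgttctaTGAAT
IL4, A_11_P053456: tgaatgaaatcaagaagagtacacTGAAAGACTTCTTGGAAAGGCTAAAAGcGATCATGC
IL4, A_11_P0000019877: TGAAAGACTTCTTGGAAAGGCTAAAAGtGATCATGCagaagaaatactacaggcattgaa

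On canFam3.1, the build of the files, the last 3 lay on chromosome 11, plus strand. A_11_P053556 was mapped over 2674 bases, from 20978692 to 20981365, A_11_P053456 covered 20981361 to 20981420 and A_11_P0000019877 covered 20981385 to 20981444. A_11_P000001132 came from a different transcript record and lay at 20973117 to 20973176, which is 5515 bases upstream of A_11_P053556. Placement in exons, introns or UTRs was not analysed here.

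Further probes whose detection or values are described below had the following sequences, which show the single probe of *GATA3* and of *IL31RA*, an *IL5* probe that was never detected and a pair of *IL4R* probes of very different base composition.
IL5, A_11_P000001151: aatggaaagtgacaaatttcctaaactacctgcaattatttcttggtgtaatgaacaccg
IL4R, A_11_P0000033097: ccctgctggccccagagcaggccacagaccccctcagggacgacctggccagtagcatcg
IL4R, A_11_P179978: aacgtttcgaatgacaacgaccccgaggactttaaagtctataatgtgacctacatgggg
IL31RA, A_11_P102436: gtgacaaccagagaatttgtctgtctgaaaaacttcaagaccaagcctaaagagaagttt
GATA3, A_11_P101926: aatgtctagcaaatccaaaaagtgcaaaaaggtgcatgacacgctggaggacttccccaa

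Detection differed between arrays, in the reference as in the RNA of the dogs. In Cy5, a median of 87.8% of all probes gave a signal well above background in ctrl (83.7% to 92.2%), against 62.6% before ASIT (53.3% to 87.4%) and 61.7% after ASIT (57.2% to 81.6%). In Cy3, where every array held the same reference RNA, the medians were 81.6%, 58% and 56.8%. The controls alone occupied slides 1 and 2 and the first scan day, so cAD cannot be told apart from slide or scan in the comparisons with ctrl. Of the arrays of cAD patients, the 4 on slide 3 (dogs 1 and 2) had Cy5 well above background for 61.2% to 87.4% of probes, and the 10 on slides 4 to 6 for 53.3% to 64.9%. The T cell, monocyte and B cell markers on the array were well above background in Cy5 on all 22 arrays for 13 of 13, 8 of 8 and 6 of 8 genes, those of NK cells for 4 of 6, and those of eosinophils, basophils and mast cells for 4 of 8.

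Except for 1 *IL4* probe described below, the cytokine probes were at or near background on most arrays of the cAD patients, while at least 1 probe of *IL4R*, *IL2RG*, *OSMR* and *GATA3* was well above background on every array. The *IL5* probe A_11_P000001151 was above background on 0 of 22 arrays in both channels. The other *IL5* probe, A_11_P0000020142, was above background in Cy5 on 8 of 8 arrays of ctrl, and on 1 of 7 before and 3 of 7 after ASIT. The single *IL13* probe, A_11_P0000020087 on chromosome 11 from 20961314 to 20961373, was above background on 6 of 8, 1 of 7 and 1 of 7 arrays, and its Cy3 signal on 0 of 22. Of the *IL4* probes, A_11_P053456 was above background on 8 of 8, 1 of 7 and 2 of 7 arrays, A_11_P053556 on 8 of 8, 2 of 7 and 3 of 7, and A_11_P0000019877 on 7 of 8, 1 of 7 and 3 of 7.

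*IL31RA* behaved like the cytokines. Its only probe, on chromosome 2 from 43192216 to 43192275, was above background on 8 of 8 arrays of ctrl, and on 2 of 7 both before and after ASIT. The second probe of *OSMR*, A_11_P0000038510, was above background on 8 of 8, 1 of 7 and 1 of 7 arrays.

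Apart from *IL13*, whose reference signal was above background in no group, the drop from ctrl to the cAD patients was also found in the Cy3 channel, which held the same reference RNA on every array. For A_11_P053456 the Cy3 signal was above background on 8 of 8, 1 of 7 and 2 of 7 arrays, the same counts as for Cy5, and for *IL31RA* on 7 of 8, 2 of 7 and 2 of 7. Over the whole array, 34379 probes had Cy5 above background on all 8 arrays of ctrl, and 7176 of them (20.9%) on at most 5 of the 14 arrays of cAD patients. In 6646 of these 7176 probes (92.6%) the Cy3 signal, too, was above background on at most 5 of the 14. Within the cAD patients, the 8 member probes detected on some but not all arrays were above background in 22 of 32 measurements on slide 3 and in 13 of 80 on slides 4 to 6. Lower detection in cAD patients and lower detection by their arrays cannot be told apart for these probes.

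**Figure D1:**
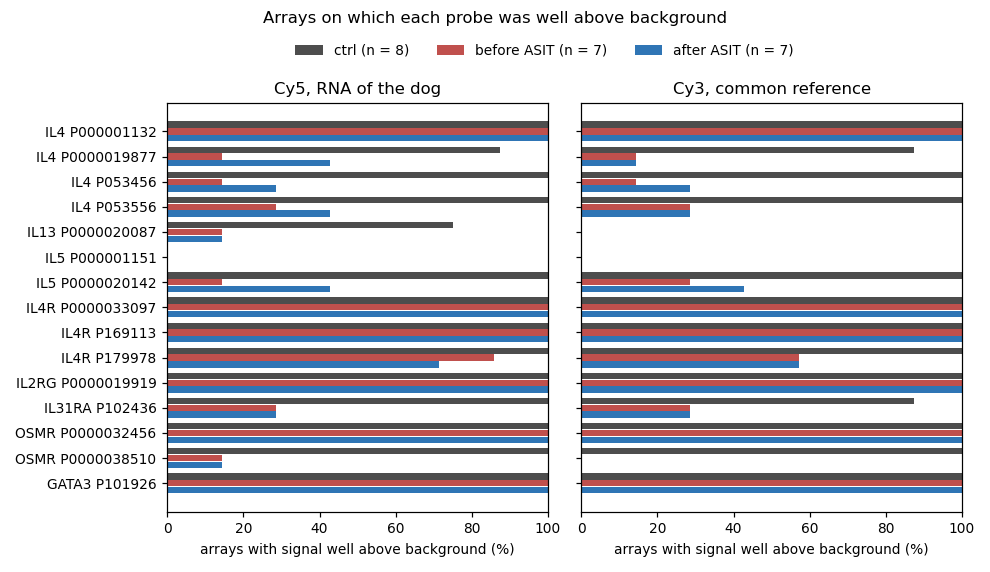
Percentage of arrays (x axis) on which the signal of each of the 15 probes (y axis, with P for A_11_P) was well above background, in Cy5 (RNA of the dog, left) and Cy3 (common reference, right), with a bar for each of ctrl (8 arrays), before ASIT (7) and after ASIT (7). The short bars of the cAD patients for 3 of the 4 *IL4* probes, the second *IL5* probe, *IL31RA* and the second *OSMR* probe recur in the reference channel, where *IL13* and the first *IL5* probe have no bar in any group.

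The fourth *IL4* probe, A_11_P000001132, was well above background in both channels on all 22 arrays, unlike the other *IL4* probes. Its processed Cy5 signal had a median of 142703 units in ctrl, 110283 before ASIT and 166149 after ASIT, and it ranked 182nd of 43603 probes by mean processed Cy5 signal. Its log2 ratio correlated with those of the other *IL4* probes by r = 0.05, -0.16 and -0.09 over the 22 arrays after the mean of each group was subtracted, whereas the other 3 correlated among themselves by 0.51 to 0.7. These values describe arrays that share slides and a reference, and carry no test.

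The probes most like A_11_P000001132 by the same measure, among 12279 probes of named genes that exceeded background on every array in both channels, belonged to *FAM107A* (r = 0.996), *SYT9* (r = 0.994) and *GJB1* (r = 0.989). Their letters showed a common feature, which was looked for after these values had been seen. The run CTCTCTCT is part of A_11_P000001132 and of none of the other 14 member probes. In the probes of *FAM107A* and *GJB1* it lies in these windows of 30 bases, with the alternating run in capitals, and the probe of *SYT9* does not hold it.
FAM107A, A_11_P225223: acatcctctgTCTCTCTCTCaaataaataa
GJB1, A_11_P122736: ttcccaaggcCTCTCTCTgcctggaatgtt

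On the whole array 120 of 43603 probes (0.275%) held CTCTCTCT on the printed strand, and 99 (0.227%) held its reverse complement. Of the 71 probes that correlated with A_11_P000001132 by more than 0.95, 47 held CTCTCTCT (66.2%) and 0 held the reverse complement. Cy5 was above background on all 22 arrays for 107 of the 120 holders (89.2%), for 39 of the 99 with the reverse complement (39.4%) and for 47.8% of all probes. Among probes with both channels above background on all arrays, the median r with A_11_P000001132 was 0.92 for the other 106 holders and 0.23 for the 19839 probes without the run. The match of letters is a description, and what RNA bound to these probes was not tested.

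**Figure D2:**
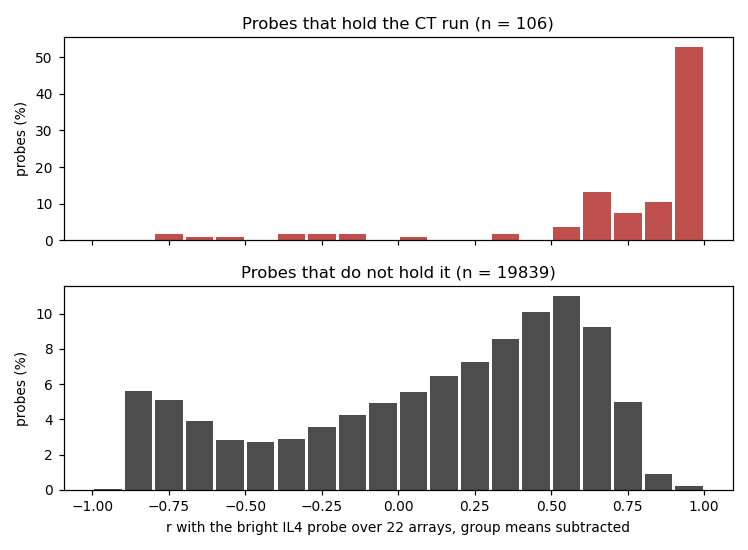
Distribution of the correlation with the bright *IL4* probe A_11_P000001132 (x axis, r over 22 arrays after subtracting group means, in bins of 0.1) for the 106 other probes that hold the CT run (top) and 19839 that do not (bottom), all of them above background on every array in Cy5 and Cy3, as percent of probes (y axis). In the highest bin, above 0.9, lie 52.8% of the holders and 0.237% of the others.

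The log2 ratio of A_11_P000001132 ran from -0.41 to 0.63 in ctrl (median 0.26), from -1 to 0.13 before ASIT (median -0.17) and from -0.45 to 0.41 after ASIT (median -0.19). The cAD patients lay lower, with overlap between the groups. In 0 vs. ctrl the difference was -0.51 ± 0.19 (SE, n = 7 and 8), with an adjusted p of 0.244 in limma and an exact permutation p of 0.0183. In 6 months vs. ctrl it was -0.38 ± 0.19, with an adjusted p of 0.681 in limma. Over the 106 other holders of the run the median difference was -0.46 in 0 vs. ctrl and -0.28 in 6 months vs. ctrl. Over all probes tested it was -0.02 and -0.04. The holders had a median r of 0.92 with this probe, so they are not separate observations. Because its detection differed from that of the other *IL4* probes, the values of this probe are given apart from theirs.

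No member passed the adjusted threshold in any comparison. A probe was tested where Cy5 exceeded background clearly on 7 arrays or more, which 14 member probes did. Of these, limma called 0 in 0 vs. ctrl, where it called 0.0418% of all 38286 probes tested. It likewise called 0 of 14 in 6 months vs. ctrl (0% of all probes) and 0 of 14 when 0 was compared with 6 months (0% of all probes). The moderated F-test over the 3 groups also called 0 of 14 (0% of all probes), with 4 of 14 under an unadjusted p of 0.05 against 9.7% of all probes. In each of the pairwise comparisons 2 of 14 member probes had an unadjusted p under 0.05, where 11.7%, 7.2% and 5.96% of all probes did, in the order in which the comparisons were named. With the dog as a block 1 of 14 did in 0 vs. 6 months, against 6.56% of all probes, and it was *IL4* A_11_P053556. Without the block the probes were, in the same order, *IL4* A_11_P000001132 and A_11_P053456, *IL13* and *GATA3*, and *IL4* A_11_P053456 and A_11_P053556. *IL13*, A_11_P053456 and A_11_P053556 passed the filter mostly through the arrays of ctrl. The count in 0 vs. 6 months rests on such probes alone. The one-way test named in the methods, with Tukey's test and Benjamini-Hochberg adjustment, called 0 as well, with 2, 2 and 0 member probes under 0.05 in Tukey's test against 6.45%, 2.83% and 2.6% of all probes. The 14 tested probes had median differences of -0.12, 0.02 and -0.04 in the 3 comparisons, and all probes tested had -0.02, -0.04 and -0.01. Of the 14, 8 passed the filter without being detected on all arrays, mostly through the arrays of ctrl, so these counts and medians do not stand for all members. For each of the 15 probes the groups overlapped in every comparison, so that 0 were free of overlap, against 0.219%, 0.11% and 0.0183% of the probes tested.

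**Figure D3:**
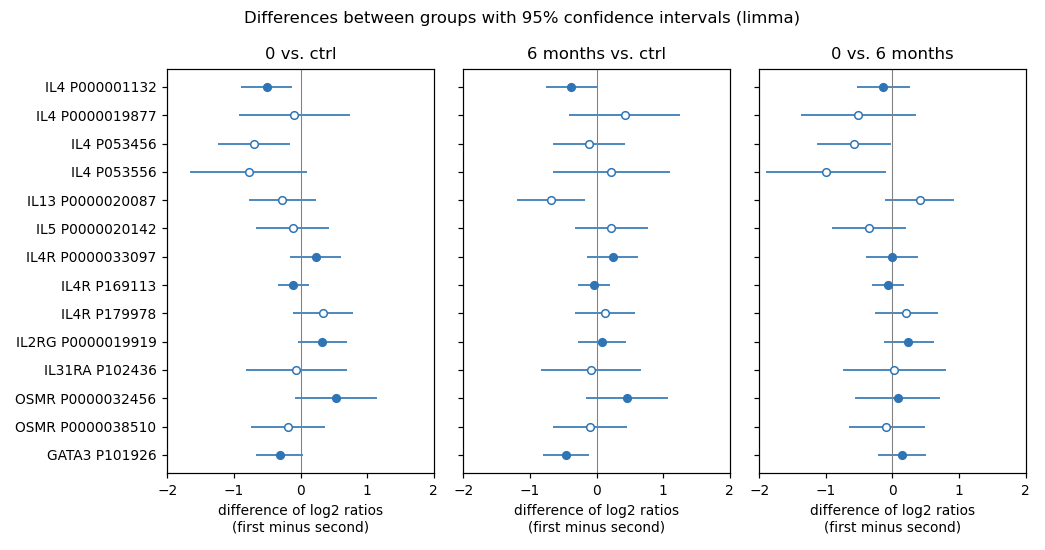
Difference of mean log2 ratios (x axis, first group minus second) with the 95% confidence interval of limma for the 14 tested member probes (y axis, with P for A_11_P) in the 3 comparisons. Filled points mark probes measured above background on all 22 arrays in both channels and open points the others, and no difference passed the adjusted threshold. Apart from the third *IL4R* probe, the open points passed the filter mostly through the arrays of ctrl, and their intervals are a description.

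Among the dim *IL4* probes, A_11_P053456 had a log2 ratio of -0.37 to 0.37 in ctrl (median -0.06), -1.60 to 0.57 before ASIT (median -1) and -0.79 to 0.28 after ASIT (median -0.09). The arrays before ASIT reached lower, and the only one of them above background, that of dog 1, stood at 0.10. The difference in 0 vs. ctrl was -0.70 ± 0.26 (SE). This probe, too, passed the filter on dim probes through the arrays of ctrl, and the difference is given with no test. It was -0.04 with normexp background correction (here and below with limited local background), which raises all signals by an offset and so shrinks the ratios of dim probes, and -0.06 in the Cy5 channel alone. Here and below, the Cy5 channel alone carries the same offset and was quantile-normalized between arrays. Its differences shrink for dim probes as well.

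A_11_P053556 ran from -0.34 to 0.26 in ctrl (median 0.12), from -2.76 to 1.33 before ASIT (median -0.45) and from -0.33 to 2.16 after ASIT (median 0). The spread of the cAD patients was several times that of ctrl, and the ratio was exactly 0 on 5 of their 14 arrays. Over all 15 member probes 30 ratios were exactly 0, of which 24 lay on arrays after ASIT, 5 before ASIT and 1 in ctrl, and in all 30 neither channel was above background. Of the 24 after ASIT, 23 lay on slide 6, which held dogs 4 to 7 after ASIT alone and had a ratio of 0 for 19.3% to 23.4% of all probes, against 3.08% to 11.2% on the other arrays after ASIT. For these dogs time on ASIT cannot be told apart from slide in 0 vs. 6 months. For this probe 4 of the 5 lay after ASIT, and each of these 4 dogs, 4 to 7, enters the difference with its value before ASIT alone. In 0 vs. 6 months the difference was -1 ± 0.44 (SE), with lower values before ASIT in 6 of 7 dogs, and it is given with no test because the probe passed the filter through the arrays of ctrl. On the 3 dogs whose arrays shared a slide the difference was -0.87. It was -0.65 without the array of dog 5 before ASIT, -0.09 with normexp and -0.06 in Cy5 alone. A_11_P0000019877 had a difference of -0.10 ± 0.40 in 0 vs. ctrl and -0.52 ± 0.42 in 0 vs. 6 months, both within its spread.

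*IL13* had a log2 ratio of -0.01 to 2.01 in ctrl (median 0.83), 0 to 1.33 before ASIT (median 0.49) and 0 to 0.96 after ASIT (median 0). The arrays of ctrl reached highest, and 4 of the 7 after ASIT stood at exactly 0. The difference in 6 months vs. ctrl was -0.69 ± 0.25 (SE, n = 7 and 8). The probe passed the filter on dim probes through the arrays of ctrl, where it was highest, so this difference is given with no test. Because the reference was above background on no array, each of these ratios was formed with a Cy3 signal at background, and it was not tested how far the difference follows from the ratios of exactly 0. With normexp the difference was -0.13 and in Cy5 alone it was 0. The processed Cy5 signal, without that offset, had a median of 53.8 units in ctrl and 9.5 after ASIT. How far the offset and the scaling set the 2 values was not tested.

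The detected *IL5* probe ran from -0.10 to 0.23 in ctrl, from -1.22 to 1.48 before ASIT and from 0 to 1.29 after ASIT, with medians of 0.07, -0.09 and 0.18. The groups overlapped throughout, and the difference was -0.12 ± 0.26 (SE) in 0 vs. ctrl, given with no test because this probe passed the filter through the arrays of ctrl. The undetected probe was not tested across the array. Its ratio was exactly 0 on 6 of the 14 arrays of cAD patients. In 6 months vs. ctrl its ratios differed by 0.80, although no array of either group had a signal above background.

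*IL4R*, the chain shared by the IL-4 and IL-13 receptors, was measured by 3 probes on chromosome 6, minus strand. A_11_P169113, at 19254195 to 19254254 near the 3′ end of its transcript record, was above background in both channels on every array, with a log2 ratio of -0.06 to 0.51 in ctrl (median 0.06), -0.29 to 0.11 before ASIT (median 0.07) and -0.06 to 0.16 after ASIT (median 0.08). All 3 groups lay on the level of the reference. The difference was -0.11 in 0 vs. ctrl, with a 95% confidence interval of -0.34 to 0.13, and -0.07 in 0 vs. 6 months, with an interval of -0.31 to 0.18.

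A_11_P0000033097, at 19255551 to 19255610, had a GC content of 70%, and its log2 ratio ran from -0.28 to 0.67 in ctrl (median 0.16), from -0.20 to 0.93 before ASIT (median 0.42) and from -0.06 to 0.79 after ASIT (median 0.45). The difference was 0.23 ± 0.18 in 0 vs. ctrl and 0.24 ± 0.18 in 6 months vs. ctrl (SE), within the overlap of the groups, with adjusted p of 0.692 and 0.76 in limma. With normexp these were 0.14 and 0.15 (0.07 and 0.05 without the limit on local background), and the former was 0.03 in Cy5 alone. The third probe, A_11_P179978, was mapped from 19263497 to 19268080 and was above background on 8 of 8, 6 of 7 and 5 of 7 arrays. It ran from -0.47 to 0.42 in ctrl, from -0.34 to 0.99 before ASIT and from -0.66 to 0.86 after ASIT, with medians of -0.08, 0.27 and 0.01. Its difference in 0 vs. ctrl was 0.33 ± 0.22 (SE), with an adjusted p of 0.602 in limma, and it was 0.05 with normexp and 0.16 in Cy5 alone. The probes thus differed in sign, and their log2 ratios correlated by 0.54, -0.15 and 0.16 over the 22 arrays after group means were subtracted.

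*IL2RG* was measured on chromosome X, from 55481108 to 55481166, with a log2 ratio of -0.54 to 0.86 in ctrl (median -0.05), -0.03 to 0.52 before ASIT (median 0.41) and -0.19 to 0.29 after ASIT (median 0.01). The arrays before ASIT lay within the range of ctrl. In 0 vs. ctrl the difference was 0.32 ± 0.18 (SE), with an adjusted p of 0.496 in limma, and it was 0.13 with normexp. Before ASIT the ratio exceeded that after ASIT by 0.40, 0.60, 0.26, 0.25, 0.12 and 0.23 in dogs 1 to 6, and in dog 7 it was lower by a difference of -0.16. The mean difference in 0 vs. 6 months was 0.24 ± 0.18 (SE), with an exact sign-flip permutation p of 0.0469 over the 7 dogs, the smallest of the 15 member probes, and an adjusted p of 0.934 in limma. With the dog as a block the adjusted p was 0.789 in limma, and the difference was 0.42 in dogs 1 to 3 alone, 0.11 with normexp and 0.03 in Cy5 alone. In the same comparison 10 of 13 T cell genes had higher values before ASIT. The median difference was 0.30 for the T cell, 0.32 for the B cell and 0.36 for the NK cell genes. It was -0.21 for the monocyte, -0.09 for the neutrophil and -0.26 for the eosinophil, basophil and mast cell genes. For the erythroid and platelet genes it was -0.26 and -0.36. The part of these cells in the *IL2RG* difference was not tested.

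The common partner of IL31RA, *OSMR*, also binds oncostatin M. Its better measured probe, A_11_P0000032456 on chromosome 4 from 70018084 to 70018143, gave log2 ratios from -0.55 to 0.32 in ctrl (median -0.09), from -0.42 to 1.36 before ASIT (median 0.51) and from -0.89 to 1.57 after ASIT (median 0.44). Most cAD patients lay above the median of ctrl, but the spread was wide, with an SD of 0.69 before and 0.77 after ASIT against 0.29 in ctrl. The difference was 0.53 ± 0.30 (SE) in 0 vs. ctrl, with an adjusted p of 0.514 in limma, and 0.46 ± 0.30 in 6 months vs. ctrl. With normexp these were 0.13 and 0.14 (0.10 and 0.02 without the limit on local background), and the latter was 0.26 without dog 7 after ASIT and 0.67 without dog 4. In the Cy5 channel alone, without the reference, it was 0.39, with an adjusted p of 0.0483 in limma, where 1126 of all probes were called. The dim probe A_11_P0000038510 gave -0.19 ± 0.27 in 0 vs. ctrl, the opposite sign, and 0 with normexp. It passed the filter through the arrays of ctrl, so this difference is given with no test. The 2 probes correlated by -0.23, with the second near background on most arrays of cAD patients.

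**Figure D4:**
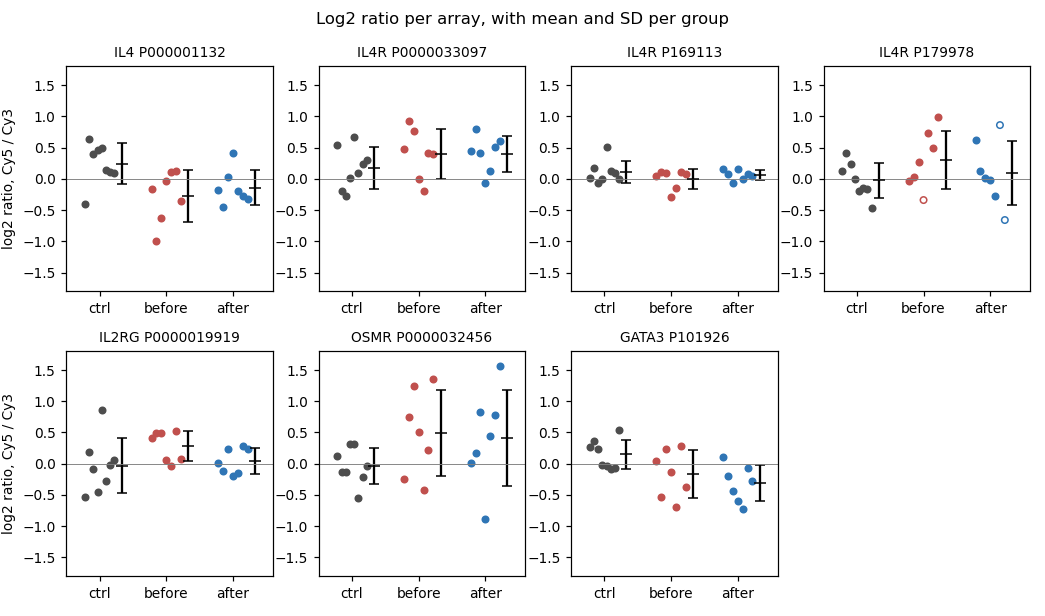
Log2 ratio of Cy5 to Cy3 (y axis) on each array of ctrl, before ASIT and after ASIT for the 6 member probes with both channels above background on all arrays and for the third *IL4R* probe, with the mean and SD of each group to the right of its points. Open points are arrays with Cy5 not well above background, and in every panel the groups overlap.

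*IL31RA* had a log2 ratio of -0.37 to 0.32 in ctrl (median 0.11), -0.77 to 1.96 before ASIT (median -0.23) and -0.97 to 1.81 after ASIT (median 0). The range of the cAD patients was wider than that of ctrl, and its highest values, of dog 5 before and dog 4 after ASIT, had Cy5 but not Cy3 above background. The difference was -0.07 ± 0.36 (SE) in 0 vs. ctrl and 0.03 ± 0.38 in 0 vs. 6 months, given with no test because the probe passed the filter through the arrays of ctrl.

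*GATA3* was measured on chromosome 2, minus strand, from 28070161 to 28070220, with a log2 ratio of -0.09 to 0.54 in ctrl (median 0.11), -0.70 to 0.29 before ASIT (median -0.13) and -0.72 to 0.10 after ASIT (median -0.27). Both groups of cAD patients reached lower than ctrl, and 6 of 7 arrays after ASIT lay below 0. The difference was -0.31 ± 0.17 (SE) in 0 vs. ctrl and -0.46 ± 0.17 in 6 months vs. ctrl, with adjusted p of 0.49 and 0.68 in limma and exact permutation p of 0.0796 and 0.00528. The exact p, which carries no adjustment, was the smallest of the 45 exact tests of member probes against groups. The difference in 6 months vs. ctrl was -0.30 with normexp and -0.25 in Cy5 alone. In 0 vs. 6 months the difference was 0.15 ± 0.18, with 4 of 7 dogs higher before ASIT.

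Since GATA3 is made mostly by T cells in blood, the T cell markers are given beside it. The mean log2 ratio of 13 T cell genes was -0.07 ± 0.22 in ctrl (SD, n = 8), 0.06 ± 0.37 before ASIT (n = 7) and -0.14 ± 0.19 after ASIT (n = 7). In 0 vs. ctrl, where *GATA3* was lower, 9 of the 13 had a higher and 3 a lower value before ASIT, with a median difference of 0.10. In 6 months vs. ctrl 10 of the 13 had a lower and 3 a higher value after ASIT (*CD28*, *ZAP70* and *CD4*, by 0.91, 0.71 and 0.33), with a median difference of -0.23, and limma called 0. Across the 22 arrays, group means subtracted, *GATA3* correlated with that mean by 0.77. In bulk blood, fewer T cells and less RNA per T cell cannot be told apart, and the part of the T cell share in the difference was not tested. The 3 named genes most like *GATA3* were *IL27RA* (r = 0.879), *CD27* (r = 0.878) and *SIT1* (r = 0.84). For *IL2RG* they were *EXOSC5* (r = 0.871), *C1RL* (r = 0.869) and *NAA10* (r = 0.849), for *IL4R* *PIGK* (r = 0.868), *METTL2A* (r = 0.842) and *SLC4A2* (r = 0.801), and for *OSMR* *TNF* (r = 0.902), *RAB37* (r = 0.893) and *FAM109A* (r = 0.892).

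**Figure D5:**
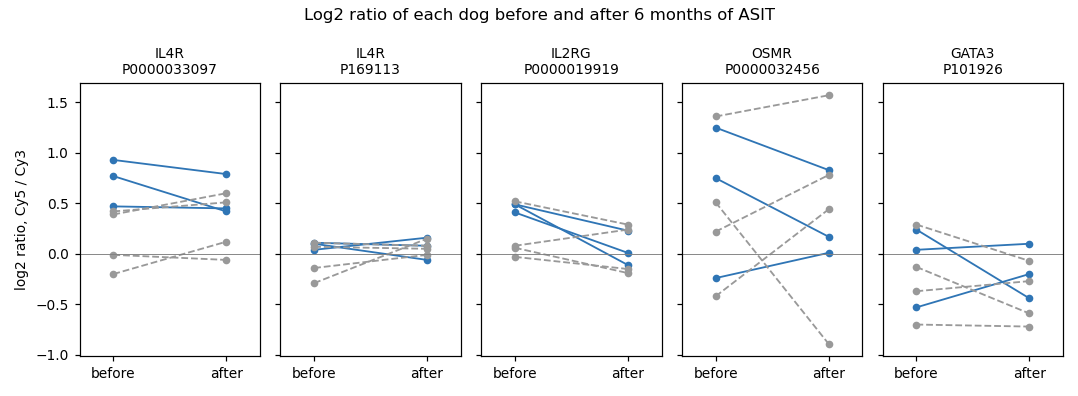
Log2 ratio of Cy5 to Cy3 (y axis) of the 7 treated dogs at both times (0 and 6 months of ASIT) for 5 receptor and *GATA3* probes (P for A_11_P), with lines joining the same dog. Solid blue lines are dogs 1 to 3, whose arrays shared a slide, and dashed grey lines dogs 4 to 7, whose arrays did not. *IL2RG* was lower after ASIT in 6 of 7 dogs, and the other panels show both directions.

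The surrounding pathway was read from 6 lists of 74 genes, namely other type 2 receptor chains, Janus kinases with STAT factors and their inhibitors, epithelial alarmins, other T helper cytokines, T helper lineage factors, and genes induced by IL-4 and IL-13. Of these, 64 had a probe and 62 were tested, and limma called 0 in each comparison. In 0 vs. ctrl, 6 of 62 had an unadjusted p under 0.05 (9.68%, against 11.7% of all probes), all with lower values before ASIT. Over all probes with such a p, 3035 had lower and 1459 higher values before ASIT. Among genes induced by IL-4 and IL-13 these were *CCL17* (a difference of -1.57 ± 0.50, SE), *CCL22* (-0.33 ± 0.12) and *POSTN* (-0.98 ± 0.38), the first 2 chemokines that attract Th2 cells and the third a matrix protein. Also among them were *IL33* (-0.62 ± 0.27), an epithelial alarmin, and *IL1RL1* (-0.68 ± 0.28), its receptor. The smallest adjusted p in limma was 0.197, for *CCL17*. *CCL22* was above background in Cy5 on all 22 arrays, *IL1RL1* on 20, *CCL17* on 15, *POSTN* on 12 and *IL33* on 11. The means of *CCL17*, *POSTN* and *IL33* were highest in ctrl, at -0.18, 0.15 and 0.02, against -1.76, -0.83 and -0.59 before ASIT. Through which group these 3 probes passed the filter was not analysed here, so their p-values are a description.

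In 6 months vs. ctrl, 4 of 62 had an unadjusted p under 0.05 (6.45%, against 7.2% of all probes). *IL5RA*, the IL-5 receptor chain of eosinophils and basophils, had a difference of 0.52 ± 0.25 (SE), and *IL22*, a cytokine that acts on epithelium, one of 0.84 ± 0.35. *SOCS2*, a feedback inhibitor of cytokine signaling, had -0.84 ± 0.31, and *POSTN* -0.97 ± 0.38. In Cy5 *IL5RA* was above background on all 22 arrays, *IL22* on 15, and *SOCS2*, like *POSTN*, on 12. The means of *SOCS2* and *POSTN* were highest in ctrl, at -0.15 and 0.15, against -0.98 and -0.82 after ASIT. Through which group these dim probes passed the filter was not analysed here, so their place under 0.05 is a description. In 0 vs. 6 months, 2 of 62 did (3.23%, against 5.96%), namely *IL21R* with 0.96 ± 0.43 (above background on 18 arrays) and *IL22* with -0.84 ± 0.36. The smallest adjusted p in limma was 0.68 and 0.725 in these comparisons. The mean log2 ratio of 8 eosinophil, basophil and mast cell genes, a list that holds *IL5RA*, was -0.09 ± 0.17 in ctrl, 0.13 ± 0.58 before ASIT and 0.38 ± 0.61 after ASIT (SD), and its part in the *IL5RA* difference was not tested. In 6 months vs. ctrl the list ran from -0.55 for *KIT* and -0.45 for *CCR3* to 1.92 for *CPA3*, a mast cell and basophil protease.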

How the data were processed

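The authors hybridized each dog's RNA (Cy5) with a common reference (Cy3) on Agilent canine arrays. They deposited scanner files with the raw and processed intensity of each spot, background-subtracted and dye-normalized by Feature Extraction (10.7.3.1 per the labels, 10.10.1.1 per the file headers), flags for signal well above background, and each spot's Cy5 over Cy3 log10 ratio. A series matrix of log10 ratios was also deposited. It equals the scanner files on all 14 arrays of cAD patients but not on the 8 of ctrl, where the ratios correlated by 0.711 to 0.844 and 1.08% to 2.68% were identical. The reason is not given in the sources used here, and the scanner values were used.

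Ratios were put on the log2 scale, without control spots and without 208 spots marked as outliers by the scanner software. Spots of a probe were averaged (43603 probes), and 38286 probes were tested, those whose Cy5 flag was set on 7 arrays or more. A limma 3.58.1 fit (R 4.3.3) held all 3 groups, with Benjamini-Hochberg adjustment across these probes at 0.05, and was tested on simulated data. For member probes, 2-sided exact permutation tests were added, whose smallest possible p is 0.000155 for 8 against 7 arrays, 0.000583 for 7 against 7, and 0.0156 for sign flips over 7 dogs. Each array of a group is a separate dog, and the number of arrays limits the precision.

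The same dogs were sampled before and after ASIT, as the labels number them. Deviations from the group means correlated by -0.21 to 0.65 (median 0.52) within dogs, and by -0.65 to 0.76 (median -0.09) between dogs. All 10 members are named, by every probe. The probe above background on most arrays, then the brightest, led each gene. The named pathway genes are, per comparison, those with the smallest p of each list, and in the text those under 0.05, of which 1 is not reported here. Genes most like a member have the highest Pearson r with its leading probe. The members and lists were chosen with earlier results of these data known.

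Alternatives were normexp background correction (offset 50) with loess, the ratio of processed signals, the Cy5 channel alone, the series matrix, a strict and no filter on dim probes, slide as a random block, the methods' one-way test, leaving out each array, and for 0 vs. 6 months the dog or slide as a block and dogs 1 to 3 alone. The Cy5 channel alone was normexp-corrected with the same offset and quantile-normalized between arrays. After seeing the data, normexp and Cy5 alone were repeated with local backgrounds limited to 3 times the array median. Figures were drawn with Python 3.11.15 and matplotlib 3.10.9.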

Additional observations from a re-analysis of the deposited data

Results flagged for a closer look

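Of 45 groups of arrays (15 probes in 3 groups), 7 held a single array far from the rest, and chance alone marks about 1 group in 20. That rate does not hold for 4 of the 7, those after ASIT, since between 2 and 5 of their 7 ratios were exactly 0, which narrows the rest of the group. For *IL13*, dog 3 after ASIT had a log2 ratio of 0.96 against 0 to 0.19 in the other 6 dogs, with Cy5 not above background. The same array stood apart in *IL4* A_11_P053556, with 2.16 against -0.33 to 0.25. For *IL31RA*, dog 5 before ASIT had 1.96 against -0.77 to 0.20. For *IL5*, dog 4 after ASIT had 1.29 against 0 to 0.33 on A_11_P0000020142, and dog 1 after ASIT had 0.75 against -0.23 to 0 on the undetected A_11_P000001151, both with Cy5 not above background. Dog 5 of ctrl stood apart on *IL4* A_11_P0000019877, with -1.90 against -0.70 to 0.21, and on the well measured *IL4R* A_11_P169113, with 0.51 against -0.06 to 0.17.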

How the results depend on the processing

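The count of called member probes stayed at 0 in every comparison without each array in turn (range 0 to 0), with the replicate block for the dog (0), and under all other alternatives but the Cy5 channel alone. That channel, without the reference, called 1 member probe in 0 vs. ctrl (*IL4* A_11_P000001132, -0.61, adjusted p = 0.0326 in limma) and 1 in 6 months vs. ctrl (*OSMR* A_11_P0000032456, 0.39, adjusted p = 0.0483), and with limited local background again 1 in each (-0.61 and 0.46) and 1 over the 3 groups. The Cy5 channel alone also called 4096 and 1126 of all 38286 probes tested in these comparisons, against 16 and 0 by the ratios. With limited local background it called 4190 and 1120 of all probes, and 2384 over the 3 groups. Adding the dog as a block changed no call for the pairs of 0 vs. 6 months.

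Sizes depended on the background correction. Of 42 differences, 38 moved by over 1.5 times with normexp and loess (33 to a smaller size), 35 with limited local background (34 smaller), 34 in the Cy5 channel alone (25 smaller), 7 with the ratio of processed signals, 6 with the series matrix and 5 with slide as a random block. In 0 vs. 6 months 11 of 14 did in dogs 1 to 3 alone and 8 of 14 with slide as a fixed block. Over well measured probes, normexp without the limit correlated with the deposited ratios by 0.345 to 0.764 on 4 arrays, and by 0.919 to 0.943 with it. Apart from the 2 calls in Cy5 alone, no difference was called, and the sign turned as follows. With normexp and loess, 0 vs. 6 months was 0.16 for *IL4* A_11_P000001132, 0.03 for *IL4R* A_11_P0000033097, 0.01 for *IL4R* A_11_P169113 and 0.03 for *OSMR* A_11_P0000038510, 0 vs. ctrl was 0.14 for *IL4* A_11_P0000019877, and 6 months vs. ctrl was 0.01 for *IL4* A_11_P053456 and -0.01 for *IL2RG*. With limited local background, 0 vs. ctrl was 0.11 for *IL4* A_11_P0000019877, 6 months vs. ctrl was 0.01 for *IL4* A_11_P053456 and -0.01 for *IL4R* A_11_P179978, and 0 vs. 6 months was -0.01 for *OSMR* A_11_P0000032456 and 0.05 for A_11_P0000038510. In the Cy5 channel alone, with limited local background in brackets, 6 months vs. ctrl was -0.05 (-0.06) for *IL4* A_11_P0000019877, 0.10 (0.12) for *IL4* A_11_P053456, -0.12 (-0.13) for *IL4* A_11_P053556, -0.14 (-0.16) for *IL5* A_11_P0000020142 and 0.02 (0.02) for *IL4R* A_11_P169113. In the same channel, 0 vs. ctrl was 0.01 (0.02) for *IL13* and 0.08 (0.09) for *IL31RA*, and 0 vs. 6 months was 0.01 (0.01) for *IL4* A_11_P0000019877, -0.10 (-0.12) for *OSMR* A_11_P0000032456 and 0.08 (0.09) for A_11_P0000038510.

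The series matrix gave 0.05 for *IL4* A_11_P0000019877 in 0 vs. ctrl. In 0 vs. 6 months *OSMR* A_11_P0000038510 stood at 0.12 with the ratio of processed signals, 0.05 with slide as a random block, 0.62 with slide as a fixed block and 0.57 in dogs 1 to 3 alone. *IL4R* stood at 0.03 and 0.17 (A_11_P0000033097) and -0.24 and -0.17 (A_11_P179978) in the last 2 settings, and A_11_P169113 at 0.02 in dogs 1 to 3. The cause was not tested. Without 1 array at a time, 0 vs. ctrl ran from -0.39 to 0.10 for *IL4* A_11_P0000019877, -0.38 to 0.07 for *IL5* A_11_P0000020142, -0.39 to 0.07 for *IL31RA* and -0.37 to 0.03 for *OSMR* A_11_P0000038510. In 6 months vs. ctrl it ran from -0.09 to 0.32 for *IL4* A_11_P053556, -0.06 to 0.02 for *IL4R* A_11_P169113, -0.01 to 0.25 for A_11_P179978 and -0.40 to 0.07 for *IL31RA*. In 0 vs. 6 months it ran from -0.10 to 0.09 for *IL4R* A_11_P0000033097, -0.30 to 0.33 for *IL31RA*, -0.14 to 0.27 for *OSMR* A_11_P0000032456 and -0.27 to 0.13 for A_11_P0000038510.

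Signal over background limits these probes. Those of *IL4* other than A_11_P000001132, and of *IL13*, *IL5* and *IL31RA*, were above background in the cAD patients on at most 5 of 14 arrays. The size of change detectable there was not tested.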
